A study of Saccharomyces cerevisiae with 17 samples.

Results

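The 10 autophagy genes described here were ATG1 (YGL180W), ATG8 (YBL078C), ATG9 (YDL149W), ATG13 (YPR185W), ATG14 (YBR128C), ATG15 (YCR068W), ATG19 (YOL082W), ATG29 (YPL166W), ATG39 (YLR312C) and ATG41 (YPL250C) of the budding yeast Saccharomyces cerevisiae. They are 10 of the 7126 features in the table of poly(A)-selected RNA counts, and all 10 were among the 6195 features that passed the filter on low counts. The genes were picked by name with their levels in these libraries already known, so the tests below describe these libraries and are no independent support. All 17 libraries came from the MATa strain BY25598, which carries trp1-1, leu2-3,112, can1-100, ade2-1, his3-11,15, XRN1-AID (HIS) and ura3-1::ADH1-OsTIR1-9Myc(URA3). In this strain the exonuclease Xrn1 is fused to a degron that answers to auxin, and OsTIR1, a receptor from rice driven by the ADH1 promoter, targets the fusion for destruction when auxin is added. The 8 Xrn1-AID libraries came from cells given 500 µM auxin for 30 min, and the 9 Xrn1-WT libraries from cells of the same strain without auxin, so both arms carried the degron and the receptor. The auxin time is listed alike for all times of salt. When auxin was added relative to salt is not described here, so changes over time within Xrn1-AID may also hold time in auxin. No solvent control is named, so auxin itself and loss of Xrn1 cannot be told apart. Each arm was taken without salt (0 min) and 10 and 30 min after 0.4 M NaCl was added, with 3 libraries in each group but only 2 of Xrn1-AID at 30 min. It is not stated whether replicates were separate cultures, and the p-values then measure the spread between these libraries only.

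Autophagy encloses cytoplasm in a double membrane and delivers it to the vacuole, the lytic compartment of yeast. The Atg1 kinase complex starts the membrane, vesicles with Atg9 and a phosphatidylinositol 3-kinase complex build it, the ubiquitin-like protein Atg8 is coupled to it, and receptors such as Atg19 and Atg39 load chosen cargo. In growing yeast many of these genes are held at low levels, and Xrn1, the main exonuclease that degrades decapped mRNA from its 5′ end, is known in this species as a negative regulator of several autophagy mRNAs.

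ATG15 and ATG41 differ from the other 8 genes in base composition. The ATG15 coding region on chromosome III, from 237214 to 238776 on the plus strand of sacCer3, has 48.0% G and C, above 96.51% of 6013 coding genes. That of ATG41 on chromosome XVI, from 74309 to 74719 on the minus strand, has 47.4%, above 95.29% of coding genes. ATG29, on chromosome XVI from 237338 to 237979 on the plus strand, lies at the other end with 34.1%, above 2.56% of coding genes, and the median coding gene has 39.8%. Each of the 10 genes has a single coding segment. ATG29 overlaps SET6 on the opposite strand and the other 9 overlap no annotated gene, so ATG29 counts are uncertain, since the strand setting of the counting is not stated.

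The sequences before the start codons of 3 genes are shown because these genes mark the ends of the patterns described below. ATG8 was among the highest in level per length after 30 min of NaCl, ATG15 differed most between the arms before salt as counted, and ATG41 moved against the rest. Each window runs from 250 bases before to 50 bases after the first base of the coding region, 5′ to 3′ on the coding strand, from RefSeq's R64 assembly (sacCer3). Capitals mark matches on either strand to the stress response element AGGGG, the Gcn4 site TGACTC, the GATA site GATAAG and the Ume6 site GCCGCC.
ATG8, chrII:80682-80981, minus strand: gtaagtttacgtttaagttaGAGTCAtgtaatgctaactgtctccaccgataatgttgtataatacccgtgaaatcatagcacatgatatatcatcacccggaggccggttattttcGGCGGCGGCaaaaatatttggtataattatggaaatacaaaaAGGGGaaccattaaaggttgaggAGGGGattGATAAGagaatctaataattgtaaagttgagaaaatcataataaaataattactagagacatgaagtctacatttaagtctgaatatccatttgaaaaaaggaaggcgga
ATG15, chrIII:236964-237263, plus strand: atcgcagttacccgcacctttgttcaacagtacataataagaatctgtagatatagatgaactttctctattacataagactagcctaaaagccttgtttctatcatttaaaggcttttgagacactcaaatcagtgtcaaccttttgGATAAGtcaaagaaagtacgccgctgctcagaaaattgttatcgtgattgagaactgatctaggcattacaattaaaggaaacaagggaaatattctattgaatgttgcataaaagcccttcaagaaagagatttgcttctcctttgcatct
ATG41, chrXVI:74670-74969, minus strand: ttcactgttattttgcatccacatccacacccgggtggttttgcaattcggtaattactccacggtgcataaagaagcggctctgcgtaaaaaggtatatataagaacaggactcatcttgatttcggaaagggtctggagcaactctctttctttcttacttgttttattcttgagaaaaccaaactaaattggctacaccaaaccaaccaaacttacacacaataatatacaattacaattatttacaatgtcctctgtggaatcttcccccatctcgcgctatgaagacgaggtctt

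The ATG8 window held matches to all 4 motifs, with AGGGG at 91 and 68 bases before the start codon and a pair of overlapping Ume6 matches at 133 and 130 bases before it. That of ATG15 held the GATA site once, and that of ATG41 none of the 4. AGGGG stood in 4 of the 10 windows, against 21.6% of 6012 coding gene windows of the same length. GATAAG stood in 5 of 10, against 14.7% of windows. TGACTC stood in 3 of 10, those of ATG8, ATG13 and ATG29, against 7.97%, and the ATG13 match ends on the first base of the start codon. GCCGCC stood in 2 of 10 against 5.14%, and AGGGAT, the Rph1 and Gis1 site, in 0 of 10 against 9.33%. These are letter matches in short windows and say nothing of binding.

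The libraries held 13.9 to 30.4 M counts, and levels are counts per M counts (CPM), scaled by TMM factors, which are shares of a library and not amounts per cell. XRN1 RNA, which the degron does not target, had 1.23 ± 0.35 higher log2 CPM in Xrn1-AID than in Xrn1-WT at 0 min (SE, edgeR quasi-likelihood test, adjusted p = 0.0153), so it does not check the loss of the protein. The 5 markers of MATa cells had group means of 16.5 to 251 CPM, while 3 markers of alpha cells had 0.0154 to 0.814 CPM. The group means of 3 markers of meiosis were 1.28 to 15.7 CPM. Over the 10 genes, Xrn1-WT 0 min replicate 3 stood farthest from its group, by 0.927 log2 units (root mean square), followed by Xrn1-WT 0 min replicate 2 at 0.664. Over all genes the farthest were Xrn1-WT 0 min replicate 3 at 0.494 and Xrn1-WT 10 min replicate 2 at 0.419, so results are also given without both. Libraries also differed in how level followed base composition. The fitted log2 difference between genes of 47.22% and of 35.19% G and C was −0.13 to 0.47 at 0 min, 0.22 to 0.86 at 10 min and 0.65 to 0.70 at 30 min in Xrn1-AID. In Xrn1-WT it was −1.02 to −0.51, −0.23 to 0.20 and −0.51 to −0.22 at the same times, below Xrn1-AID at each time. Of the genes at the ends of the GC range, ATG15 was higher in Xrn1-AID at 0 min, as was ATG29 with its low GC. ATG41, with high GC, was lower in Xrn1-AID at 10 min. Its differences at 0 and 30 min were 0.54 and 0.72, neither called, and 0.37 and 0.21 after correction for GC content and length. Whether base composition made these differences was not tested. Values after correction for GC content and length are given beside results that they change.

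Per kb of coding length, ATG41 had the highest level of the 10 genes before salt and ATG39 the lowest, in both arms. This order depends on the division by length. In CPM at 0 min, ATG19 stood above ATG41 in Xrn1-AID, at 63.3 to 70.6 against 33.1 to 42.2. In Xrn1-WT ATG19 and ATG41 overlapped in CPM, at 20.6 to 37.4 and 19.0 to 30.8. In Xrn1-AID at 0 min, ATG41 averaged 90.2 CPM per kb, ATG19 53.9, ATG8 16.7, ATG15 15.8, ATG13 14.1, ATG29 7.72, ATG14 3.20, ATG9 2.70, ATG1 2.04 and ATG39 0.891. In Xrn1-WT at 0 min the order was ATG41 at 62.0, ATG19 at 24.3, ATG8 at 12.8, ATG13 at 9.65, ATG14 at 5.34, ATG15 at 2.84, ATG29 at 2.50, ATG9 at 2.38, ATG1 at 2.02 and ATG39 at 0.687 CPM per kb. Per kb, ATG15 thus stood above ATG13 and ATG14 in Xrn1-AID and below both in Xrn1-WT. In CPM the ATG15 range lay below that of ATG13 in both arms. In Xrn1-AID the library ranges per kb of the neighbours ATG8, ATG15 and ATG13 overlapped, as did those of ATG14, ATG9 and ATG1. In Xrn1-WT those of every pair of neighbours from ATG19 to ATG1 overlapped. There ATG41 lay above all the others, while the ATG39 range overlapped those of ATG15 and ATG29, which were low in replicate 3. At 30 min of NaCl the order had changed. ATG19 at 183 and ATG8 at 157 CPM per kb stood above ATG41 at 33.7 in Xrn1-AID, and ATG8 at 141 and ATG19 at 137 above ATG41 at 20.5 in Xrn1-WT. In each arm the levels per kb of ATG8 and ATG19 overlapped at that time. In CPM ATG8 lay below ATG19 there, at 44.9 and 66.6 against 185 and 272 in Xrn1-AID. In Xrn1-WT the CPM values were 46.1 to 54.3 for ATG8 against 147 to 184 for ATG19.

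**Figure D1:**
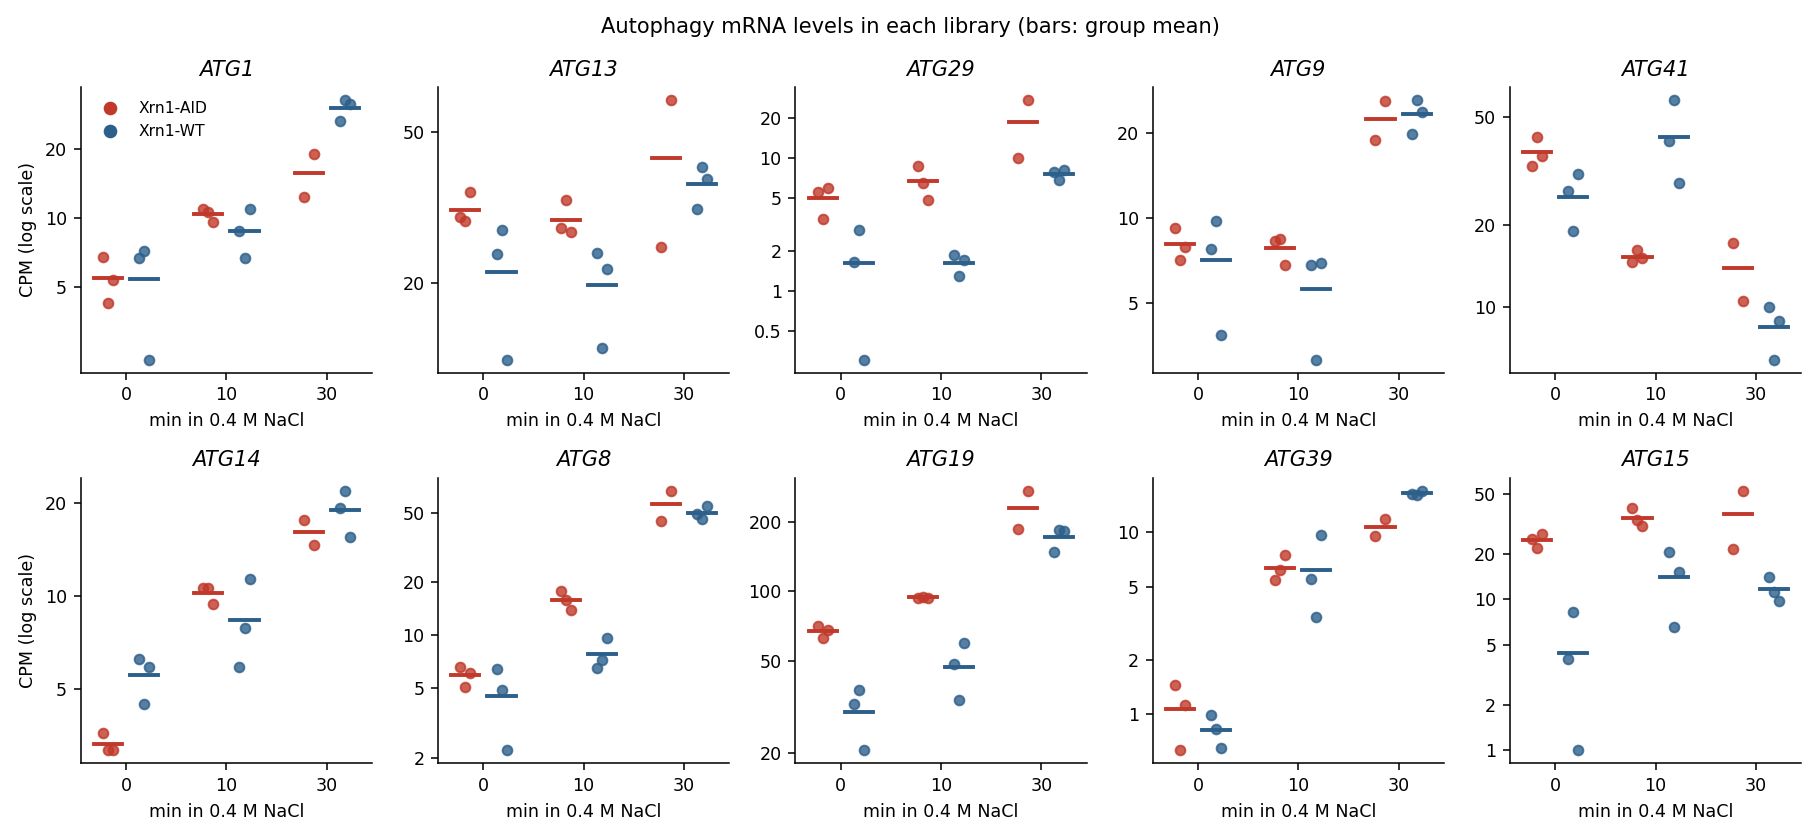
Level of each of the 10 autophagy genes in every library, in TMM-scaled CPM on a log axis, by arm and minutes of 0.4 M NaCl, with points for libraries and lines for group means. As counted, ATG15 shows the widest gap between the arms at 0 min, with 21.8 to 27.0 CPM in Xrn1-AID and 0.995 to 8.30 CPM in Xrn1-WT, and ATG41 the only change from 0 to 10 min called in opposite directions, to 14.6 to 16.2 CPM in Xrn1-AID and 28.5 to 57.7 CPM in Xrn1-WT at 10 min.

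Of the Atg1 complex, ATG1 and ATG29 were called higher at 30 min than at 0 min in both arms, and ATG13 in Xrn1-WT. ATG1, which encodes the kinase that starts autophagosome formation, had 6.80, 4.28 and 5.40 CPM at 0 min, 11.0, 10.6 and 9.64 after 10 min and 12.3 and 19.0 after 30 min in Xrn1-AID. The Xrn1-WT libraries had 6.73, 7.18 and 2.42 CPM at 0 min, 8.78, 6.69 and 11.0 after 10 min and 26.4, 32.5 and 31.3 after 30 min. The Xrn1-AID libraries at 30 min all lay below those of Xrn1-WT, with a log2 difference of −0.94 ± 0.35 (SE) that did not pass the test (edgeR, adjusted p = 0.0641). After GC and length correction it was −0.72 with an adjusted p of 0.0407. It was also called by DESeq2 (−0.95, adjusted p = 0.0234) and with only the compared groups in the fit (−0.97, adjusted p = 0.0157). Relative to 0 min, ATG1 rose at 30 min by 1.51 ± 0.34 log2 in Xrn1-AID and by 2.47 ± 0.33 in Xrn1-WT, and the difference of these responses, −0.96 ± 0.47, did not pass (adjusted p = 0.298). At 10 min ATG1 was called in Xrn1-AID, at 0.92 ± 0.32 (adjusted p = 0.0339), and this call was lost without any 1 of 5 of the 6 libraries compared, at 0.77 to 0.97, the exception being Xrn1-AID 0 min replicate 1.

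ATG13, the regulatory subunit that TORC1 phosphorylates, changed less. It had 29.9, 29.2 and 34.8 CPM at 0 min, 28.0, 33.2 and 27.3 after 10 min and 25.02 and 60.8 after 30 min in Xrn1-AID. Its Xrn1-WT libraries had 23.9, 27.7 and 12.6 CPM, then 24.1, 13.6 and 21.8, then 31.3, 40.4 and 37.8. The Xrn1-AID libraries at 30 min lay on either side of those at 0 min. The change from 0 to 30 min was called in Xrn1-WT, at 0.77 ± 0.31 (adjusted p = 0.0406), and was not in Xrn1-AID, at 0.46 ± 0.33 (adjusted p = 0.265). The Xrn1-WT call was lost without Xrn1-WT 0 min replicate 1 (0.86, adjusted p = 0.0552) or replicate 3 (0.51, adjusted p = 0.145), or without Xrn1-WT 30 min replicate 2 (0.69) or 3 (0.75). Without both farthest libraries it was 0.51 (adjusted p = 0.10). After GC and length correction the Xrn1-AID change was 0.59, which was called (adjusted p = 0.0404). Between 10 and 30 min ATG13 rose by 0.88 ± 0.31 in Xrn1-WT, a call lost without Xrn1-WT 10 min replicate 2 (0.71) or Xrn1-WT 30 min replicate 2 (0.80) or 3 (0.85).

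ATG29, part of the scaffold of the complex with Atg17 and Atg31, was higher in Xrn1-AID. It had 5.47, 3.43 and 5.96 CPM at 0 min, 8.63, 6.50 and 4.79 after 10 min and 9.87 and 27.0 after 30 min in Xrn1-AID. In Xrn1-WT it had 1.65, 2.86 and 0.303 CPM at 0 min, from 30, 59 and 7 counts, then 1.84, 1.30 and 1.71, then 7.85, 6.79 and 8.11. At each time every Xrn1-AID library lay above every Xrn1-WT library. The log2 difference between the arms was 1.64 ± 0.52 at 0 min (adjusted p = 0.0247), 2.02 ± 0.54 at 10 min (adjusted p = 0.0124) and 1.29 ± 0.52 at 30 min, which did not pass (adjusted p = 0.084). The 0 min call rested on few counts. It was lost without Xrn1-AID 0 min replicate 1 (1.56) or 3 (1.48) or Xrn1-WT 0 min replicate 1 (1.66) or 3 (1.12), and it was 2.39 without Xrn1-WT 0 min replicate 2. The 10 min call was lost without Xrn1-AID 10 min replicate 1 (1.79, adjusted p = 0.0502). After GC and length correction the difference was 2.49 at 0 min, 2.52 after 10 min and 2.06 after 30 min, all 3 called. With only the compared groups in the fit the 30 min difference was called as well (1.25, adjusted p = 0.0381). Within the arms ATG29 rose at 30 min, by 1.90 ± 0.52 in Xrn1-AID and 2.25 ± 0.52 in Xrn1-WT. The Xrn1-AID value was 0.99 without the 30 min replicate 2 (adjusted p = 0.193), and the Xrn1-WT value was 3.00 without the 0 min replicate 2.

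ATG9 and ATG41 encode partners at the membrane source. ATG9, the scramblase carried by the vesicles that seed the membrane, had 9.22, 7.13 and 7.89 CPM at 0 min, 8.30, 8.40 and 6.81 after 10 min and 18.9 and 25.9 after 30 min in Xrn1-AID. Those of Xrn1-WT had 7.77, 9.76 and 3.85 CPM, then 6.80, 3.16 and 6.90, then 19.8, 26.0 and 23.7. The 30 min libraries of each arm lay above all its earlier ones, and the arms overlapped at 30 min. ATG9 rose from 0 to 30 min by 1.47 ± 0.33 log2 in Xrn1-AID (adjusted p = 0.00131) and by 1.70 ± 0.31 in Xrn1-WT (adjusted p = 0.000161), and neither 10 min change passed.

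ATG41, which encodes an Atg9-binding protein needed for full bulk autophagy, had the only salt response of the 10 genes that was called in opposite directions in the arms. It had 33.1, 42.2 and 35.9 CPM at 0 min, 14.6, 16.2 and 15.1 after 10 min and 17.2 and 10.5 after 30 min in Xrn1-AID. In Xrn1-WT it had 26.7, 19.0 and 30.8 CPM at 0 min, 40.9, 57.7 and 28.5 after 10 min and 10.0, 6.38 and 8.87 after 30 min. At 10 min the 3 Xrn1-AID libraries lay below all 3 of Xrn1-WT, whose range overlapped that of its own 0 min libraries. Relative to 0 min, ATG41 changed at 10 min by −1.28 ± 0.26 log2 in Xrn1-AID (adjusted p = 0.00103) and by 0.73 ± 0.25 in Xrn1-WT (adjusted p = 0.0284). The difference of the responses was −2.01 ± 0.36 with an adjusted p of 0.0244, where 0.775% of all tested genes were called, a share that itself rests on single libraries. It ranged from −2.23 to −1.68 with 1 library left out, was −1.85 without both farthest libraries (adjusted p = 0.0276), and was −1.89 after GC and length correction (adjusted p = 0.000843). Its call was lost without any 1 of Xrn1-AID 0 min replicates 2 (−1.90) and 3 (−2.00), Xrn1-AID 10 min replicates 1 (−1.97), 2 (−2.05) and 3 (−2.00), Xrn1-WT 0 min replicate 1 (−2.04) and Xrn1-WT 10 min replicate 1 (−2.03), with adjusted p up to 0.0823.

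The fall of ATG41 in Xrn1-AID at 10 min held without each library, but the Xrn1-WT rise did not. The change was 0.27 after GC and length correction (adjusted p = 0.146) and 0.58 without both farthest libraries (adjusted p = 0.0809). It was 0.77 without Xrn1-WT 0 min replicate 1 and 0.56 without replicate 2, and 0.75 without Xrn1-WT 10 min replicate 1 and 0.42 without replicate 2, none of which passed. The arms differed at 10 min by −1.47 ± 0.26 (adjusted p = 0.00119), a call kept without each library, at −1.69 to −1.15. At 0 and 30 min every Xrn1-AID library instead lay above every Xrn1-WT library, with log2 differences of 0.54 and 0.72 that were not called. The difference of the 10 min responses thus also holds the difference at 0 min. At 30 min ATG41 had fallen in both arms relative to 0 min, by −1.42 ± 0.30 log2 in Xrn1-AID and −1.60 ± 0.26 in Xrn1-WT, and the difference of these responses was 0.18 ± 0.38 (adjusted p = 0.834).

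**Figure D2:**
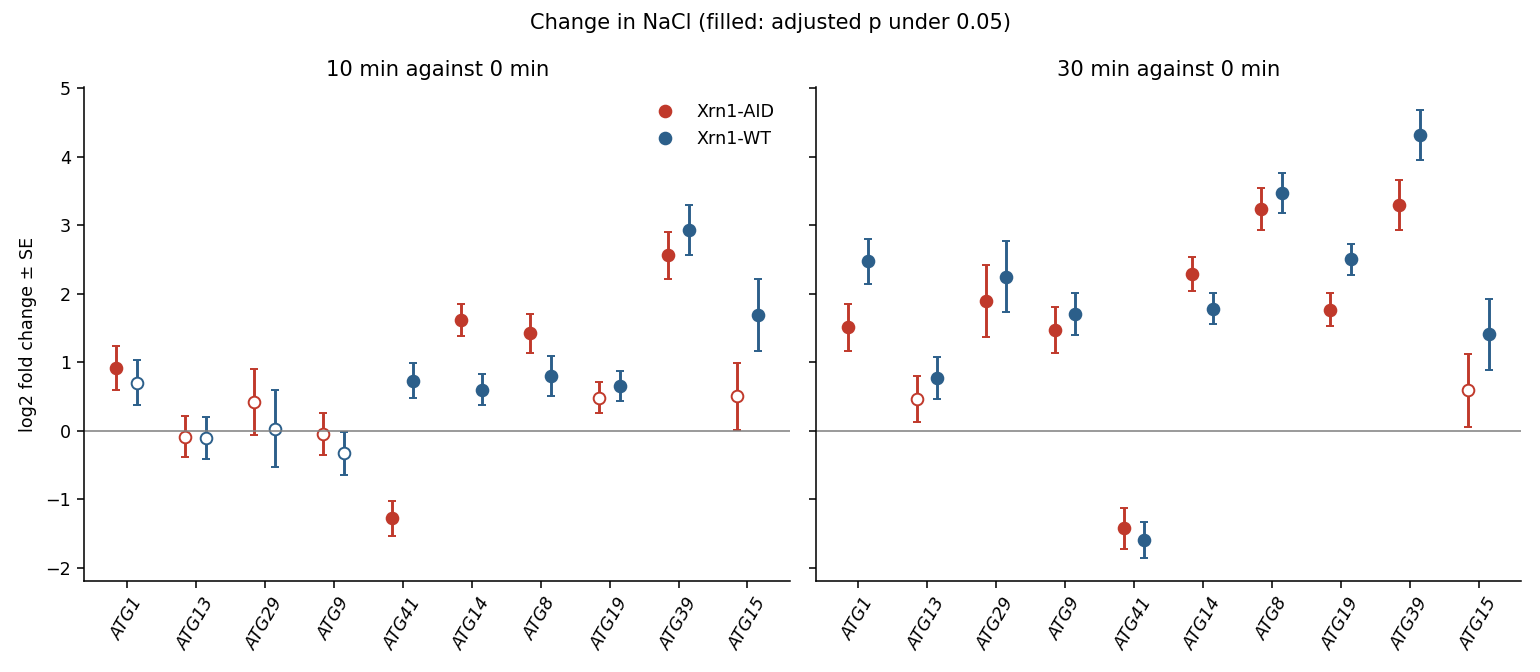
Change of each of the 10 genes after 10 and 30 min of NaCl relative to 0 min, as log2 fold change with bars of 1 SE, in Xrn1-AID and Xrn1-WT. ATG41 lies below 0 at 10 min in Xrn1-AID, at −1.28, and above it in Xrn1-WT, at 0.73, and the responses of each arm share their 0 min libraries.

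ATG14, a subunit specific to the phosphatidylinositol 3-kinase complex of autophagy, had 3.60, 3.17 and 3.16 CPM at 0 min, 10.6, 10.6 and 9.39 after 10 min and 17.6 and 14.7 after 30 min in Xrn1-AID. The levels in Xrn1-WT were 6.23, 4.47 and 5.88 CPM, then 5.88, 7.89 and 11.3, then 19.3, 21.9 and 15.6. At 0 min the Xrn1-AID libraries lay below those of Xrn1-WT, and the arms overlapped at the other times. ATG14 was the only one of the 10 genes called lower in Xrn1-AID at 0 min, by −0.74 ± 0.23 (adjusted p = 0.0237). This call was lost without Xrn1-AID replicate 2 (−0.71) or 3 (−0.71), or Xrn1-WT replicate 1 (−0.64) or 3 (−0.69), with adjusted p from 0.0554 to 0.0811, and without both farthest libraries (−0.69, adjusted p = 0.0522). At 10 min ATG14 rose by 1.62 ± 0.23 log2 in Xrn1-AID (adjusted p = 4.14e-05) and by 0.60 ± 0.23 in Xrn1-WT (adjusted p = 0.0427), and the difference of 1.02 ± 0.32 did not pass (adjusted p = 0.115). The Xrn1-WT call was lost without any 1 of Xrn1-WT 0 min replicates 2 (0.47) and 3 (0.63) and Xrn1-WT 10 min replicates 2 (0.61) and 3 (0.31). At 30 min the change from 0 min was 2.28 ± 0.25 in Xrn1-AID and 1.78 ± 0.23 in Xrn1-WT, called in both.

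ATG8, whose protein is coupled to phosphatidylethanolamine on the growing membrane, had one of the largest responses. It had 6.61, 5.07 and 6.06 CPM at 0 min, 17.8, 15.9 and 13.9 after 10 min and 44.9 and 66.6 after 30 min in Xrn1-AID. In Xrn1-WT it had 6.45, 4.90 and 2.21 CPM at 0 min, 6.51, 7.24 and 9.68 after 10 min and 48.9, 46.1 and 54.3 after 30 min. At 10 min every Xrn1-AID library lay above every Xrn1-WT library, while the arms overlapped at 0 and 30 min. The rise from 0 to 30 min was 3.23 ± 0.31 log2 in Xrn1-AID (adjusted p = 2.25e-07) and 3.47 ± 0.30 in Xrn1-WT (adjusted p = 4.21e-08). At 10 min it was 1.42 ± 0.28 in Xrn1-AID (adjusted p = 0.000851) and 0.80 ± 0.29 in Xrn1-WT (adjusted p = 0.035). The Xrn1-WT call at 10 min was lost without Xrn1-WT 0 min replicate 3 (0.45) or Xrn1-WT 10 min replicate 2 (0.83) or 3 (0.61). The arms differed at 10 min by 1.02 ± 0.28 (adjusted p = 0.0151), a call lost without Xrn1-AID 10 min replicate 1 (0.93) or Xrn1-WT 10 min replicate 1 (0.90). The difference of the 10 min responses was not called.

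Both cargo receptors rose with salt, and only ATG19 was called different between the arms. ATG19, the receptor of the cytoplasm-to-vacuole (Cvt) route for the aminopeptidase Ape1, had 70.6, 63.3 and 68.0 CPM at 0 min, 94.0, 94.9 and 93.6 after 10 min and 185 and 272 after 30 min in Xrn1-AID. Levels in Xrn1-WT were 32.7, 37.4 and 20.6 CPM, then 48.6, 34.0 and 59.7, then 147, 184 and 182. Every Xrn1-AID library lay above every Xrn1-WT library of the same time. The log2 difference was 1.15 ± 0.22 at 0 min (adjusted p = 0.00145) and 0.99 ± 0.22 at 10 min (adjusted p = 0.00505), both kept without each library, and 0.42 ± 0.24 at 30 min, which did not pass (adjusted p = 0.231). ATG19 rose from 0 to 30 min by 1.76 ± 0.24 in Xrn1-AID and 2.50 ± 0.23 in Xrn1-WT, and the difference of −0.74 ± 0.33 did not pass (adjusted p = 0.257). At 10 min its rise in Xrn1-WT was 0.65 ± 0.22 (adjusted p = 0.0261), a call lost without Xrn1-WT 0 min replicate 3 (0.42) or Xrn1-WT 10 min replicate 1 (0.63) or 3 (0.45). In Xrn1-AID the 10 min change was 0.48 and was not called, although every 10 min library lay above every 0 min one. With only the compared groups in the fit it was called (0.51, adjusted p = 0.00238).

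ATG39, the receptor for autophagy of the nuclear envelope, was nearly silent before salt and had the largest log2 response of the 10 genes. It had 1.45, 0.634 and 1.12 CPM at 0 min, from 37, 12 and 22 counts, 5.45, 6.21 and 7.55 after 10 min and 9.52 and 11.8 after 30 min in Xrn1-AID. In Xrn1-WT it had 0.992, 0.825 and 0.649 CPM at 0 min, from 18, 17 and 15 counts, 5.52, 3.44 and 9.68 after 10 min and 16.2, 16.0 and 16.9 after 30 min. In both arms the 10 and 30 min libraries all lay above the 0 min ones. At 10 min the rise was 2.56 ± 0.35 log2 in Xrn1-AID (adjusted p = 2.46e-05) and 2.93 ± 0.36 in Xrn1-WT (adjusted p = 7.31e-06). At 30 min it was 3.29 ± 0.37 in Xrn1-AID (adjusted p = 1.33e-06) and 4.32 ± 0.37 in Xrn1-WT (adjusted p = 3.6e-08). The 4 calls held without each library. The Xrn1-AID libraries at 30 min lay below those of Xrn1-WT, by −0.62 ± 0.34 (adjusted p = 0.207). With only the compared groups in the fit this difference was called (−0.65, adjusted p = 0.0345).

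ATG15, the vacuolar lipase that breaks down the inner membrane of delivered vesicles, had the largest difference between the arms at 0 min as counted, although with GC and length correction that of ATG29 was larger. It had 25.2, 21.8 and 27.0 CPM at 0 min, 40.7, 33.5 and 30.8 after 10 min and 21.6 and 52.6 after 30 min in Xrn1-AID. In Xrn1-WT it had 4.02, 8.30 and 0.995 CPM at 0 min, from 73, 171 and 23 counts, 20.5, 6.59 and 15.3 after 10 min and 14.1, 11.2 and 9.79 after 30 min. At each time every Xrn1-AID library lay above every Xrn1-WT library, and the 3 Xrn1-WT libraries at 0 min were far apart from each other. The log2 difference between the arms was 2.48 ± 0.53 at 0 min (5.58-fold, adjusted p = 0.00277), 1.30 ± 0.50 at 10 min (adjusted p = 0.0637, not called) and 1.66 ± 0.54 at 30 min (adjusted p = 0.0372).

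The 0 min difference of ATG15 was called without each library, at 1.99 to 3.33. The highest value was without Xrn1-WT 0 min replicate 2 and the lowest without replicate 3. After GC and length correction it was 1.79 (adjusted p = 0.0149), while the 30 min difference was 1.20 (adjusted p = 0.103). The 30 min call was lost without Xrn1-AID replicate 2 (0.88, adjusted p = 0.413) or Xrn1-WT replicate 1 (1.82), 2 (1.63) or 3 (1.55). Over time, ATG15 was called higher than at 0 min in Xrn1-WT at 10 min, at 1.68 ± 0.53 (adjusted p = 0.0163), and at 30 min, at 1.41 ± 0.52 (adjusted p = 0.0301), and at neither time in Xrn1-AID, at 0.50 ± 0.49 and 0.59 ± 0.54. With only the compared groups in the fit the Xrn1-AID change at 10 min was called (0.52, adjusted p = 0.0143). The Xrn1-WT values were 1.14 (adjusted p = 0.078) and 0.93 (adjusted p = 0.123) after GC and length correction. Without Xrn1-WT 0 min replicate 2 they were 2.54 and 2.26. The 10 min call was lost without Xrn1-WT 0 min replicate 1 (1.62) or Xrn1-WT 10 min replicate 1 (1.32). The 30 min call was lost without Xrn1-WT 0 min replicate 1 (1.35) or 3 (0.93) or Xrn1-WT 30 min replicate 1 (1.25) or 2 (1.44). The differences of the arms' responses were not called.

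**Figure D3:**
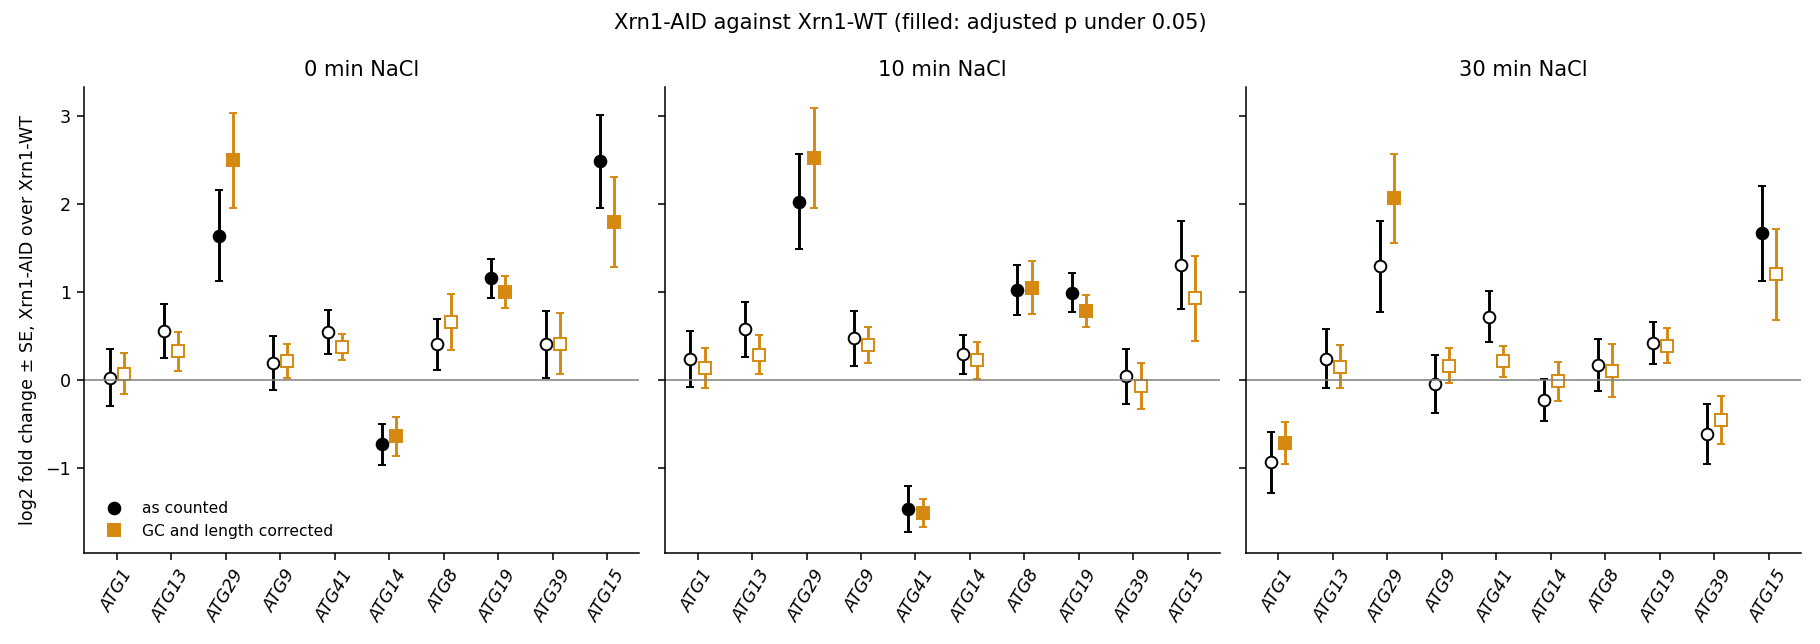
Difference between Xrn1-AID and Xrn1-WT for each of the 10 genes at 0, 10 and 30 min of NaCl, as log2 fold change with bars of 1 SE, uncorrected and after GC and length correction. ATG15 at 0 min moves to 1.79 from 2.48 with the correction, ATG29 to 2.49 from 1.64, and ATG41 at 10 min stays below 0, at −1.52 and −1.47.

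Over the 10 genes together, more were called at 30 min than at 10 min of NaCl in both arms. At 10 min relative to 0 min, 4 rose and 1 fell in Xrn1-AID, where 35.5% of all tested genes were called, 19% higher and 16.6% lower. In Xrn1-WT 6 were called, all higher, where 44.2% of genes were, 19.7% higher and 24.6% lower. The 6 were ATG8, ATG14, ATG15, ATG19, ATG39 and ATG41, and only the ATG39 call was kept without each library. Without both farthest libraries ATG8 (0.49) and ATG14 (0.66) lost their 10 min calls in Xrn1-WT, as ATG41 did. After GC and length correction ATG8 lost its call there (0.78, adjusted p = 0.054) and ATG1 was called at 1.01. DESeq2 also called ATG1 in Xrn1-WT at 10 min (0.75, adjusted p = 0.0428). With library size in place of TMM, or with only the compared groups in the fit, ATG39 alone kept its Xrn1-WT call at 10 min. With library size the ATG1 value at 10 min in Xrn1-AID was 0.58 (adjusted p = 0.311), and with only the compared groups the ATG15 value at 30 min in Xrn1-WT was 1.41 (adjusted p = 0.0829). At 30 min relative to 0 min, 7 rose and 1 fell in Xrn1-AID, against 53.8% of all genes called, 27.2% higher and 26.6% lower. In Xrn1-WT 9 rose and 1 fell, against 56.6% of genes, 29.1% higher and 27.5% lower. The 10 genes' median log2 change at 30 min was 1.64 in Xrn1-AID and 2.01 in Xrn1-WT, while that of all tested genes was 0.01 in both. The Xrn1-WT changes share 0 min replicate 3, where the 10 genes lay low, with a median deviation of −0.73 log2 from their group. Their median change without that library was not computed. The 10 genes were picked with their levels known, so their medians are no independent support. From 10 to 30 min, 5 were called in Xrn1-AID, all higher, against 41.8% of all genes, 19.8% higher and 22.1% lower. In Xrn1-WT 8 rose and 1 fell over that interval, against 56.3% of genes, 30.6% higher and 25.7% lower. The comparisons within an arm share libraries and are not independent of each other. In Xrn1-AID the rises from 10 to 30 min of ATG14, 0.66 ± 0.24, and of ATG29, 1.48 ± 0.52, were the least secure. With GC and length correction 3 more genes were called there, ATG1 at 0.72, ATG13 at 0.68 and ATG39 at 0.91. The ATG14 rise was lost without any 1 of the 5 libraries (0.52 to 0.78), and that of ATG29 was 0.57 without the 30 min replicate 2 and was lost without the 10 min replicate 2 (1.46) or 3 (1.29).

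Without both farthest libraries the differences between the arms of ATG41 at 0 min (0.69, adjusted p = 0.0367) and of ATG15 at 10 min (0.99, adjusted p = 0.0396) were called as well. In the full set, ATG15, ATG19 and ATG29 were higher and ATG14 lower in Xrn1-AID at 0 min, which makes 3 higher and 1 lower, where 32.6% of all tested genes were called, 16.2% higher and 16.4% lower. The count was 2 in all without Xrn1-AID 0 min replicate 3 or Xrn1-WT 0 min replicate 1 or 3, which left ATG15 and ATG19. The ATG14 and ATG29 calls were also lost with library size alone (−0.65 and 1.60) and with only the compared groups (−0.74 and 1.63). At 10 min ATG8, ATG19 and ATG29 were higher and ATG41 lower, against 28.2% of all genes called, 17.3% higher and 10.9% lower, and the count was 2 without Xrn1-AID 10 min replicate 1. At 30 min ATG15 alone was called, higher, against 22.5% of all genes, 11.5% higher and 11% lower, and with library size alone it was 1.64 (adjusted p = 0.119). The 1393 calls over all genes behind this share were 913 without Xrn1-AID 30 min replicate 1, 518 without replicate 2 and 900 without Xrn1-WT 30 min replicate 3. The difference of the 10 min responses was called lower for ATG41 and for no other of the 10, against 0.484% of genes called lower and 0.291% higher, and with library size alone its value was −1.87 (adjusted p = 0.0664). For the difference of the 30 min responses edgeR called 0 of the 10, against 1.55% of all genes, 1% higher and 0.549% lower, with 1 at an unadjusted p under 0.05 and 0 by DESeq2.

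Of the 32 further autophagy genes, which hold the remaining core machinery, selective receptors and the vacuolar proteases, 22 rose and 1 fell at 30 min in Xrn1-AID, where 27.2% of all tested genes rose and 26.6% fell. In Xrn1-WT 25 rose and 1 fell, where 29.1% of all genes rose and 27.5% fell. Their median log2 change was 0.77 in Xrn1-AID and 1.00 in Xrn1-WT. In Xrn1-AID the largest were PEP4 at 2.65 ± 0.19, PRB1 at 2.36 ± 0.19, ATG33 at 2.31 ± 0.27 and ATG34 at 2.097 ± 0.25. In Xrn1-WT they were PRB1 at 2.95 ± 0.19, ATG7 at 2.61 ± 0.15, PEP4 at 2.48 ± 0.18 and ATG33 at 2.29 ± 0.25. PEP4 and PRB1 encode vacuolar proteases, ATG7 the activating enzyme of Atg8 and Atg12, ATG33 a protein of mitochondrial autophagy and ATG34 a receptor related to Atg19. The genes that fell, named after their values were seen, were ATG5 in Xrn1-AID, at −0.81 ± 0.30, and ATG10 in Xrn1-WT, at −1.07 ± 0.40, both of the Atg12 conjugation pathway. At 10 min 11 rose and 1 fell in Xrn1-AID, against 19% and 16.6% of all genes, and 11 rose and 5 fell in Xrn1-WT, against 19.7% and 24.6%. With library size alone the 12 calls in Xrn1-AID were 6, and with only the compared groups the 16 in Xrn1-WT were 9. The 10 min changes were led by PRB1 at 2.22 ± 0.18 in Xrn1-AID and 2.16 ± 0.18 in Xrn1-WT.

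Between the arms, 6 of these 32 genes were higher and 2 lower in Xrn1-AID at 0 min, with a median of 0.04, against 16.2% and 16.4% of all genes. The 8 calls were 4 without Xrn1-AID 0 min replicate 3, 5 without Xrn1-WT 0 min replicate 1, 5 with only the compared groups and 2 with library size alone. The largest were ATG16, of the Atg12 conjugate, at 1.97 ± 0.49, the pexophagy receptor ATG36 at 1.14 ± 0.18, VPS15, the regulatory subunit of the phosphatidylinositol 3-kinase, at −0.85 ± 0.19 and the mitophagy receptor ATG32 at 0.74 ± 0.20. At 10 min 11 were higher and 1 lower, against 17.3% and 10.9% of all genes, with a median of 0.37, against 0.09 over all genes. The 12 calls were 4 without Xrn1-AID 10 min replicate 2, 5 without replicate 3 and 7 without any 1 of Xrn1-AID 10 min replicate 1 and Xrn1-WT 10 min replicates 1 and 2. They were 7 with library size alone and 7, of which 4 were higher and 3 lower, with only the compared groups. At 30 min 4 were called, all lower, where 11.5% of all genes were higher and 11% lower, and the list's median was −0.04. They were VPS15, VPS34, ATG21 and ATG7 at −0.83, −0.75, −0.53 and −0.46. This count was 1 without Xrn1-AID 30 min replicate 1, 2 without any 1 Xrn1-WT 30 min library or with no filter on low counts, and 0 without Xrn1-AID 30 min replicate 2 or with library size alone. For the differences of responses edgeR called 0 of the 32 at either time, with 8 after 10 min and 7 after 30 min at an unadjusted p under 0.05, and DESeq2 called 1 at each time.

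**Figure D4:**
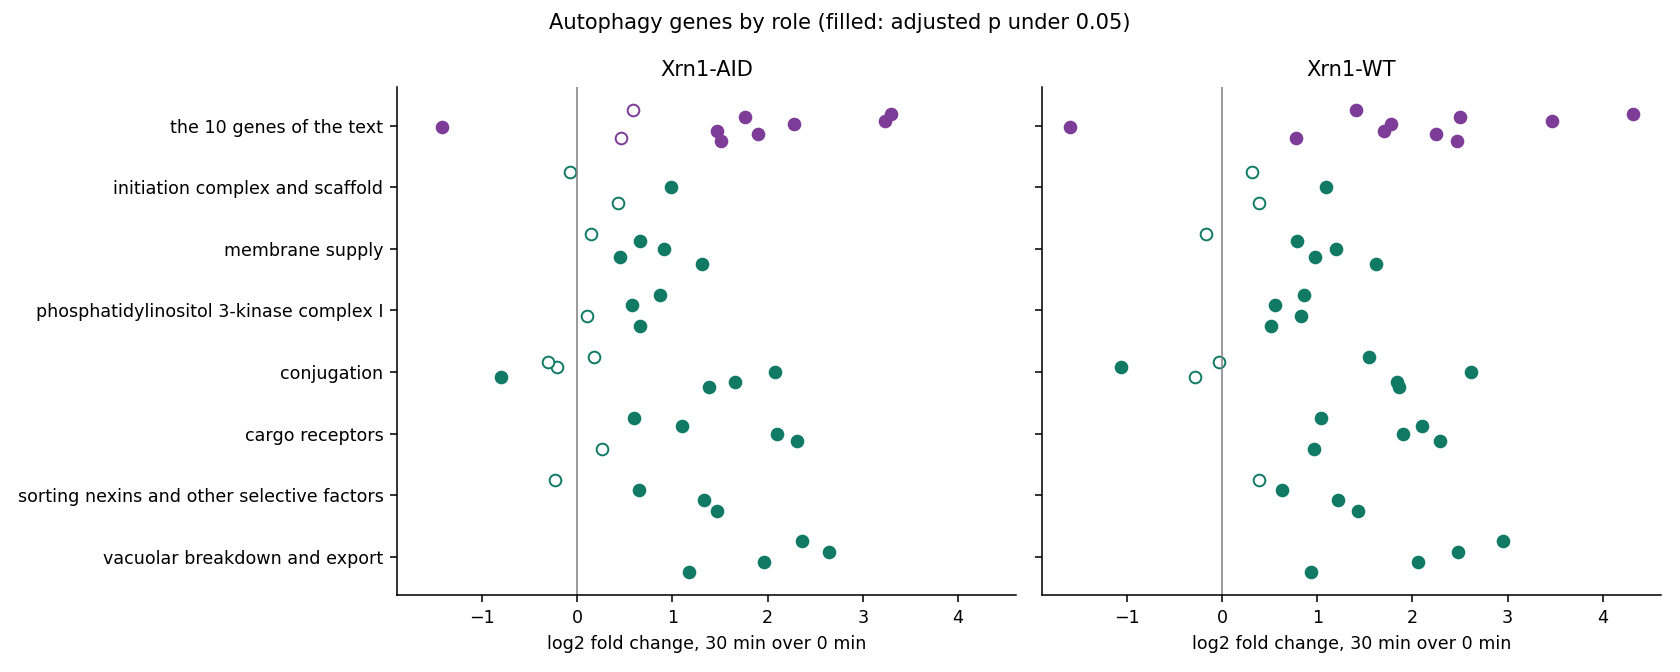
Log2 fold change at 30 min of NaCl over 0 min for each of the 10 genes of the text (top row) and of the 32 further autophagy genes, grouped by role, in Xrn1-AID (left) and Xrn1-WT (right), where filled points passed the test. The medians were 1.64 for the 10 genes and 0.77 for the 32 in Xrn1-AID, and 2.01 and 1.00 in Xrn1-WT, and ATG41 is the lowest point in both panels, at −1.42 in Xrn1-AID and −1.60 in Xrn1-WT. The Xrn1-WT values share 0 min replicate 3, where the 10 genes had a median deviation of −0.73 log2. The 10 genes were picked with their levels known, so their larger medians are no independent result.

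Cargo genes of the Atg19 route were also called. APE1, which encodes the aminopeptidase that Atg19 binds, averaged 48.4 ± 3.99 CPM at 0 min, 269 ± 13.7 at 10 min (SD, n = 3 each) and 358 and 387 CPM in the 30 min libraries of Xrn1-AID. In Xrn1-WT it averaged 28.9 ± 4.17, 145 ± 13.98 and 316 ± 20.6 CPM (SD, n = 3 each). It rose at 30 min by 2.94 ± 0.15 log2 in Xrn1-AID and 3.45 ± 0.14 in Xrn1-WT, and was 0.74 ± 0.13 higher in Xrn1-AID than in Xrn1-WT at 0 min. Of the 11 genes of vacuole fusion and Cvt cargo, 6 rose in Xrn1-AID and 5 in Xrn1-WT at 30 min and no other was called in either arm, with medians of 0.50 and 0.38. Over all genes 27.2% rose and 26.6% fell in Xrn1-AID, and 29.1% rose and 27.5% fell in Xrn1-WT. AMS1, the vacuolar mannosidase, rose by 1.75 ± 0.28 in Xrn1-AID and 2.44 ± 0.27 in Xrn1-WT.

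By level over the 17 libraries, centred for each gene, ATG41 stood farthest from the other 9 genes. The distance used was the root mean square of the log2 differences after centring. The nearest of the 10 to ATG41 was ATG13, at 1.27, and the nearest to ATG15 was ATG29, at 0.867, while ATG9 and ATG19 were the closest pair, at 0.482. Among 5101 candidates with a mean of at least 10 CPM, the genes nearest to ATG15 were the splicing factor YJU2 at 0.333, GEM1, a GTPase of the mitochondrial outer membrane, at 0.492, the ribonuclease P subunit RPR2 at 0.578, SIP5 at 0.579 and SPT10, a regulator of histone genes, at 0.623, where the median candidate lay at 1.43. Those nearest to ATG41 were FRS2, a subunit of phenylalanyl-tRNA synthetase, at 0.370, RPL12B at 0.374, the fatty acid synthase subunit FAS2 at 0.384, YMC1, a mitochondrial carrier, at 0.390 and RPS0B at 0.397, against a median of 1.02. RPL12B and RPS0B are ribosomal protein genes with near-identical copies, so their counts are uncertain. With group means in place of libraries, 3 of the 5 nearest genes were shared for each of ATG15 and ATG41.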

How the data were processed

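Poly(A)-selected RNA was sequenced in single 50-base reads from a stranded kit, per the labels' protocols. The deposited values were whole-number read counts per feature, and the submitters' processing notes name TopHat2 2.1.0, featureCounts 1.5.1, DESeq2 1.22.2 and sacCer3 without their roles. The strand setting, the annotation and the treatment of multiply aligned reads are not given in the sources used here. Nothing was computed from reads.

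Levels are CPM from the counts with TMM factors. The 6195 features kept by edgeR's filterByExpr (edgeR 4.0.16, R 4.3.3) were fitted with glmQLFit (robust), with 1 mean for each of 6 groups. The 11 contrasts were each adjusted by Benjamini-Hochberg over all 6195, and a gene is called at an adjusted p under 0.05. The SE is the log2 fold change divided by the square root of F. The fit was run on simulated counts with 200 changed genes, raised or lowered at random. These are far fewer than were called here in the changes with salt, so the run does not test the scaling. Members and gene lists were chosen with earlier results of these data known. Named genes were the 10, XRN1, up to 4 called genes of each list with the largest changes, and the 5 nearest to ATG15 and ATG41. Alternatives were DESeq2 1.42.0, other scalings and filters, replicate blocks, fewer groups, each library left out and, added after seeing the data, a GC and length correction (5778 genes, 93.3% of those tested) and leaving out the 2 farthest libraries. Promoter windows and coordinates came from RefSeq's R64 (sacCer3), where 6048 of 7126 features (84.87%) matched.

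The titles and the descriptions number 1 Xrn1-AID library of 30 min differently, and titles were used. Floors and intervals were not needed, since none of the 10 genes had a count of 0. Of the regulators in the closing section, 1 gene that the naming rule picks is not reported here. Of the 10 promoter windows, 3 are printed.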

Additional observations from a re-analysis of the deposited data

Results flagged for a closer look

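The 10 min response of ATG41 differed between the arms by −2.01 ± 0.36 log2 (SE), the Xrn1-AID response minus that of Xrn1-WT, by an interaction term of the edgeR fit (adjusted p = 0.0244, rank 11 of 6195 genes by p). All 3 Xrn1-AID libraries at 10 min lay below their 0 min libraries, while those of Xrn1-WT overlapped theirs. At 0 min the Xrn1-AID libraries all lay above those of Xrn1-WT. The other 9 genes had no called difference of responses at 10 min.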

How the results depend on the processing

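No called direction of the 10 genes reversed under any alternative run. Counts of the 10 genes called that moved by over 1.5 times were these. For 10 against 0 min in Xrn1-WT the count of 6 was 1 with library size alone, 1 with only the compared groups, 3 with the replicate block of the descriptions and 3 without both farthest libraries. For 30 against 10 min in Xrn1-AID the count of 5 was 8 with library size alone, 8 with GC and length correction and 3 with either replicate block. For Xrn1-AID against Xrn1-WT at 0 min the count of 4 was 2 with only the compared groups. At 30 min the count of 1 was 0 with library size alone, 0 with either replicate block, 2 with DESeq2, 2 with GC and length correction and 4 with only the compared groups. For the difference of 10 min responses the count of 1 was 0 with library size alone and 0 with either replicate block. The cause was not tested. With 1 library left out, the counts ranged from 4 to 5 and 3 to 5 for 10 against 0 min in Xrn1-AID and Xrn1-WT, 7 to 9 and 8 to 10 for 30 against 0 min, and 3 to 5 and 8 to 9 for 30 against 10 min. Between the arms they ranged from 2 to 4 at 0 min, 2 to 4 at 10 min and 0 to 2 at 30 min, and from 0 to 2 for the difference of 10 min responses. Library size alone shifted the median of all genes, to −0.50 and 0.43 at 10 and 30 min in Xrn1-WT and to −0.36 and 0.29 in Xrn1-AID.

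Replicate numbers showed no pairing by a count of correlated deviations, which were above 0.1 in 11 of 40 same-numbered pairs of libraries and 32 of 80 differently numbered pairs. By title numbers, the correlations of same-numbered pairs ran from −0.74 to 0.64. Deviations were taken from the mean of each small group, so these pairs are not independent and the count cannot exclude a pairing. With the replicate block the adjusted p of the ATG41 difference was 0.0585 (title numbers) and 0.0669 (description numbers). Over all genes, the 48 calls for the difference of 10 min responses were 303 with DESeq2, 73 without both farthest libraries, 19 with only the compared groups and 0 with library size alone or either block. They were 0 without any 1 of Xrn1-AID 0 min replicates 2 and 3, the 3 Xrn1-AID 10 min libraries, Xrn1-WT 0 min replicate 1 and Xrn1-WT 10 min replicate 1. They were 19 without Xrn1-AID 0 min replicate 1, 24 and 84 without Xrn1-WT 10 min replicates 2 and 3, and 129 and 137 without Xrn1-WT 0 min replicates 2 and 3. The 96 calls for the 30 min responses ranged from 6 (without Xrn1-AID 30 min replicate 1) to 337 (DESeq2). For Xrn1-AID against Xrn1-WT, library size alone gave 1113 in place of 2019 at 0 min, 1149 in place of 1749 at 10 min and 724 in place of 1393 at 30 min, 1 library left out gave 1331 at 0 min (without Xrn1-AID replicate 3) and 1031 at 10 min (without Xrn1-AID 10 min replicate 1), and only the compared groups gave 1197 at 0 min, and 1783 in place of 2740 for 10 against 0 min in Xrn1-WT. Depth limits ATG29 and ATG39 most, with 7 and 12 counts in their lowest libraries.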

Other observations

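Among 21 genes known to regulate autophagy gene expression in yeast, 5 rose and 1 fell at 30 min relative to 0 min in Xrn1-AID, where 27.2% of all tested genes rose and 26.6% fell. In Xrn1-WT 8 rose and 1 fell, where 29.1% of all genes rose and 27.5% fell. GCN4, the transcription factor of amino acid starvation, fell by 1.03 log2 in Xrn1-AID and by 1.52 in Xrn1-WT. MSN2, which encodes a stress transcription factor that binds AGGGG, rose at 10 min by 2.35 log2 in Xrn1-AID and 2.94 in Xrn1-WT. At 0 min 4 of the 21 were higher in Xrn1-AID than in Xrn1-WT, MSN2 at 0.82, GAT1 at 0.75, RPH1 at 0.74 and TPK2 at 0.71, and no other was called, where 16.2% of all genes were higher and 16.4% lower. Counts and values of these 21 genes were not computed under the alternative runs or with libraries left out.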
